A study of Mus musculus with 5 samples.

Results

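Neuron and radial glia product genes are genes whose proteins build or mark neural cells, from the nestin filaments and lipid-binding protein of radial glia to the tubulin, neurofilaments and synaptic vesicle proteins of neurons. The 33 members were chosen by name, and each is represented by the brightest probe set that carries its symbol alone, out of 18193 genes on the array. By role they fall into 6 progenitor products and 27 neuronal products. The cells were differentiated from mouse embryonic stem cells towards a pancreatic fate on plates coated with gelatin. Control cells were collected on day 5, day 6 and day 8. Treated cells received 2 µM MPA from day 5 on, so they had 1 day of it on day 6 and 3 days on day 8. The labels leave the abbreviation MPA unexplained, and the sources used here do not give the stem cell line, its strain or any vehicle in the controls. The 5 groups had 1 array each.

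Neural tissue arises from a sheet of dividing progenitors that become radial glia, elongated cells that serve as stem cells and as scaffolds for migrating neurons. Their daughters leave the cell cycle, switch on early neuronal transcription factors, build a neuron-specific microtubule and filament skeleton, extend an axon tipped by a growth cone and at last form synapses. Many of these proteins are not private to neural cells: hormone-secreting endocrine cells use the same vesicle release machinery, Prom1 marks many epithelia and Nes is made by other immature cells. In a culture of mixed cells, fewer cells of a type and less RNA per cell cannot be told apart.

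Levels are MAS5 signals on a linear scale, as deposited. Their trimmed mean was 500 on the day 5 array and was not computed for the other arrays. The share of probe sets above 86.8, the median signal used as a floor, lay between 46.7% and 51.9%. A gene counts as measured in a comparison when at least 1 of the 2 arrays lies above the floor, and a fold with the other array at the floor is written "at least". Without replicates there is no spread between cultures, and folds are sizes without a test. As a reading of RNA integrity, Gapdh had a 3' to 5' ratio of 1.08 on day 5 and 1.19 in the day 6 control. The ratio was 1.31 with MPA on day 6, against 1.55 and 1.57 without and with MPA on day 8. That of Actb was 2.08 on day 5, 3.04 and 3.06 without and with MPA on day 6, and 2.81 and 2.71 on day 8. The part of RNA integrity in the differences between days was not tested. By the probe set used, 15 of the 33 members lay above the floor on all 5 arrays and 16 on some of them. Mapt, which encodes the axonal microtubule protein tau, and Syn1, which encodes synapsin I of synaptic vesicles, did so on none.

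The control time course shows the background against which MPA was given. Between day 5 and day 6, 6 members were at least 2-fold lower and 1 was at least 2-fold higher, where 4.4% and 5.46% of all measured genes were. Between day 6 and day 8 the balance was the other way, with 16 members at least 2-fold higher and 3 lower, where 7.07% and 6.43% of all genes were. Day 8 against day 5 gave 15 higher and 3 lower, against 9.61% and 7.27% of all genes. Of the 31 members above the floor on some control array, 21 had their highest control signal on day 8, 6 on day 5 and 4 on day 6, and 14 had their lowest on day 6. The days of highest and lowest control signal were not counted over all genes. The comparisons between days share arrays, so they are not independent of each other, nor of the MPA comparisons.

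**Figure D1:**
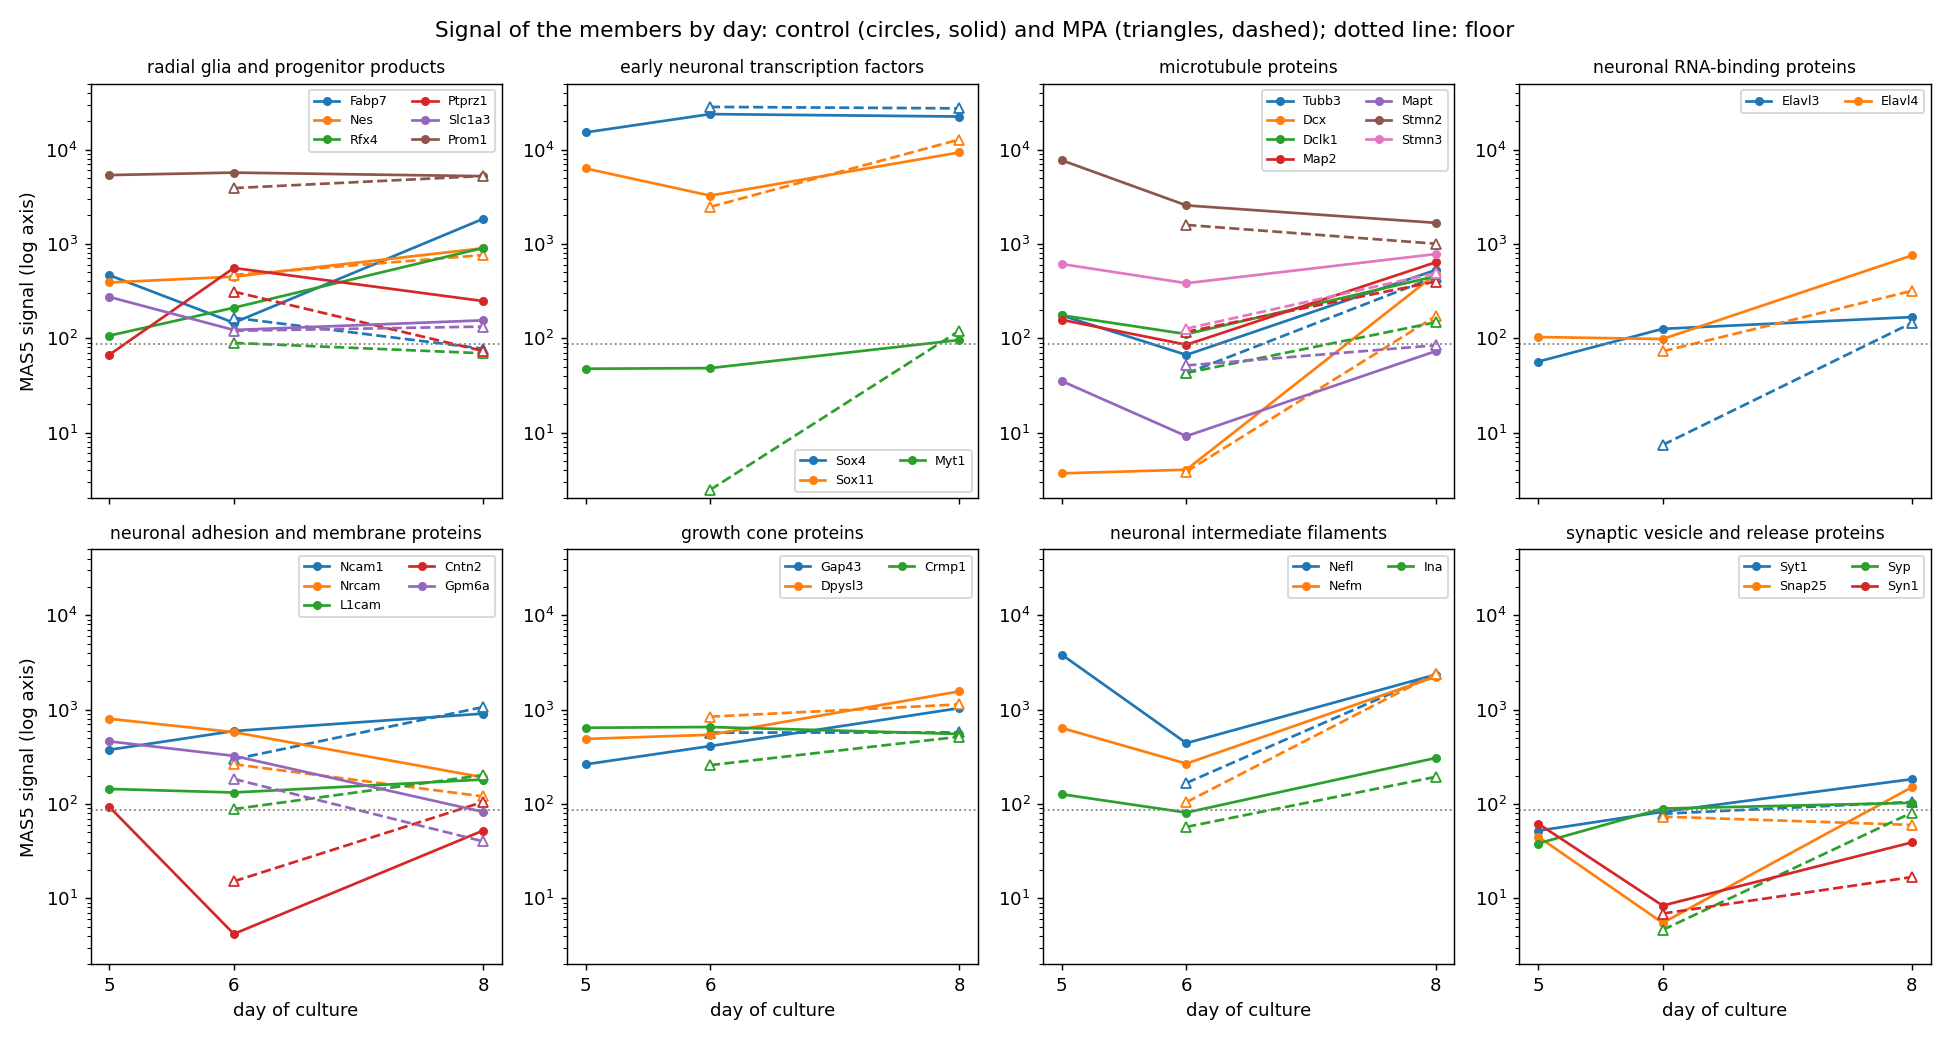
MAS5 signal (log axis) of each of the 33 members against the day of culture, in 8 panels by role. Circles and solid lines are the controls, triangles and dashed lines the MPA arrays, each point is 1 array, and the dotted line is the floor of 86.8. Among progenitor products, Fabp7 parts most between the day 8 arrays, with 1841 without and 77.5 with MPA, while Prom1 and Nes lie close together.

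The progenitor products split into 3 genes that were much lower with MPA on day 8 and 3 that were nearly level. Fabp7 encodes the brain lipid-binding protein of radial glia. Its signal was 466, 146 and 1841 on days 5, 6 and 8 without MPA, and 165 and 77.5 on days 6 and 8 with MPA. The day 8 control was the highest of the 5 arrays and the day 8 MPA array the lowest, the only one under the floor. Fabp7 was thus at least 21.2-fold lower with MPA on day 8, and 1.13-fold higher on day 6. With a floor on the 65th percentile the day 8 log2 difference was -3.38 in place of -4.41.

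Rfx4 encodes a transcription factor needed for dorsal brain and spinal cord development and present in radial glia. It had signals of 106, 211 and 905 in the controls on days 5, 6 and 8, and of 89.2 and 69.2 with MPA on days 6 and 8. Control levels were higher at each later day, while both MPA arrays lay near or under the floor. Rfx4 was 2.36-fold lower with MPA on day 6 and at least 10.4-fold lower on day 8. It was the 1 member at least 2-fold lower at both days. At a floor on the 65th percentile the day 6 log2 difference was -0.25 in place of -1.24, and as the mean with its second probe set, never above the floor, it was -0.62. The same alternatives gave -2.36 and -1.69 on day 8 in place of -3.38.

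Ptprz1 encodes a receptor phosphatase of the radial glia surface that binds the growth factor pleiotrophin. It stood at 66.7, 555 and 248 on days 5, 6 and 8 in the controls and at 312 and 73.2 with MPA. Its peak was on day 6, unlike Fabp7 and Rfx4. With MPA it was 1.78-fold lower on day 6 and at least 2.86-fold lower on day 8, and a further probe set was lower at both days too. The day 8 log2 difference was -1.51, against -0.49 with a floor on the 65th percentile and -0.70 as the mean over probe sets.

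The other 3 progenitor products differed less. Nes, which encodes the intermediate filament nestin, had control signals of 389.9, 449 and 899 and MPA signals of 469 and 762. It was 1.04-fold higher with MPA on day 6 and 1.18-fold lower on day 8. A second probe set of Nes, also above the floor on every array, had 296 without and 122 with MPA on day 6, a log2 difference of -1.28, and -0.16 on day 8. Slc1a3, which encodes the glial glutamate transporter GLAST, had control signals of 274, 122 and 155 and MPA signals of 119.9 and 133, which is 1.02-fold and 1.16-fold lower. Prom1, which encodes the membrane protein prominin 1, had control signals of 5366, 5698 and 5224 and MPA signals of 3904 and 5242. It was 1.46-fold lower on day 6 and 1.004-fold higher on day 8. These 3 genes had higher signals with MPA than the floor at both days, which Fabp7, Rfx4 and Ptprz1 did not on day 8.

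Of the 6 members at least 2-fold lower with MPA on day 8, the 250 bases upstream of the start are shown for the progenitor products Fabp7 and Rfx4 and the neuronal products Dcx and Elavl4, to compare their upstream letters. They are RefSeq starts of build GRCm38.p6, written 5′ to 3′ on the strand of the gene, and they were chosen after the values were seen. Where a gene has several listed starts, 1 is printed, and for Dcx and Elavl4 it is a start with a motif. Capitals mark the searched motifs on either strand: the E-box form CAGCTG, the E-box form CAGATG and the SOX core ACAAAG. Proneural factors are known to bind E-boxes.
Fabp7 (chr10:57784673-57784922, plus strand): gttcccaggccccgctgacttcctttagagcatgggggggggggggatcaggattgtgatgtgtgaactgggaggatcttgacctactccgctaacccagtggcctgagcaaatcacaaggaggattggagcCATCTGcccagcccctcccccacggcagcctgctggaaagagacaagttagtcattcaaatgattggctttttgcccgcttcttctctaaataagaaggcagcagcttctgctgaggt
Rfx4 (chr10:84755798-84756047, plus strand): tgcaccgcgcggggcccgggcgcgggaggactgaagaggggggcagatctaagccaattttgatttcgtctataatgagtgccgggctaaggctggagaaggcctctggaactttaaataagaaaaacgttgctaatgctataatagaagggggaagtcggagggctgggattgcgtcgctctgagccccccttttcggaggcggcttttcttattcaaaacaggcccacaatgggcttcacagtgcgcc
Dcx (chrX:143933125-143933374, minus strand): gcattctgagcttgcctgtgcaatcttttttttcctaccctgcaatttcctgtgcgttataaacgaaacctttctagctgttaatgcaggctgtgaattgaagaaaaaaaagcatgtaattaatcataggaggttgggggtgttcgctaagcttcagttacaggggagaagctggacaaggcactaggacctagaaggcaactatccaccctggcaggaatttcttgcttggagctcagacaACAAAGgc
Elavl4 (chr4:110287512-110287761, minus strand): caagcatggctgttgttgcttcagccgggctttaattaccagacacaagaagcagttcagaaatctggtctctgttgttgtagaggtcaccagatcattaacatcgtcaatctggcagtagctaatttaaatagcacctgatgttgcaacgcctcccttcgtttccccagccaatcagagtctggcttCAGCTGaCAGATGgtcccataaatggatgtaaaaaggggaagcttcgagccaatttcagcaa

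None of the motifs is in all 4 windows, and CAGATG is in those of Fabp7 and Elavl4. The Fabp7 window holds CAGATG, read on the other strand, 118 bases before the start. The Elavl4 window holds CAGCTG 62 bases and CAGATG 55 bases before it, and the Dcx window holds ACAAAG 8 bases before it. Neither listed start of Rfx4 has any of them, nor has any listed start of Ptprz1 or Dclk1, the members not shown. The other listed start of Dcx has none, and of the other 3 of Elavl4, 1 has both E-box forms, 1 has CAGATG alone and 1 has none. Of the 33 members, 25 had a listed window, 38 windows in all. CAGATG was in 7 of the 38 (4 members) and in 14.4% of all 32851 windows of that length. CAGCTG was in 7 of the 38 (6 members) and in 13% of all, and ACAAAG in 5 of the 38 (4 members) and in 16.5% of all. Parts of the REST site, TTCAGCACC or GGACAGCG, were in 1 of the 38 windows each (Syn1 and Crmp1) and in 0.301% and 0.992% of all. A match is a description of letters and does not show binding.

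The early neuronal transcription factors were not lower with MPA on day 8. Sox4 had control signals of 15199, 23759 and 22397 on days 5, 6 and 8 and MPA signals of 28328 and 27337 on days 6 and 8. It was 1.19-fold and 1.22-fold higher with MPA. Sox11, its close relative, had control signals of 6308, 3250.1 and 9321 and MPA signals of 2464 and 12772. It was 1.32-fold lower on day 6 and 1.37-fold higher on day 8. Both are broad regulators of immature cells, and both encode factors that act before most neuronal products appear. Myt1, which encodes a zinc finger factor of early neurons and of endocrine precursors, lay above the floor only on day 8, with 95.8 without and 119.9 with MPA.

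Microtubule proteins were lower with MPA on day 8 in all 6 members measured, by 1.18-fold to 3.08-fold, and the size differed between genes. Dcx encodes doublecortin, which binds microtubules in migrating young neurons. Its signals of 3.69 and 4.03 on days 5 and 6 in the controls and 3.85 with MPA on day 6 were all far under the floor. At day 8 it stood at 477 without and 171 with MPA, 2.80-fold lower. A further probe set, dimmer, had 104 and 96.4, and the mean over probe sets gave a log2 difference of -0.40 in place of -1.48. Dclk1, which encodes a doublecortin-like kinase, had control signals of 175, 111 and 453 and MPA signals of 42.8 and 147. It was 3.08-fold lower on day 8, and 3 further probe sets measured there were lower as well, one of them at 321 without and 148 with MPA. The mean over its 9 probe sets, most of them dim, gave -0.48 in place of -1.62.

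The general neuronal tubulin and microtubule genes differed less. Tubb3, which encodes the neuronal beta-tubulin, had control signals of 174, 66.5 and 527 and MPA signals of 42.3 and 447, so it was 1.18-fold lower on day 8. Map2, of dendritic microtubules, had control signals of 157, 85.3 and 637 and MPA signals of 117 and 398. It was at least 1.34-fold higher with MPA on day 6 and 1.60-fold lower on day 8. A dimmer probe set of Map2 was lower on both days, with log2 differences of -0.18 and -0.66. Both genes were highest in the day 8 control and next highest with MPA on day 8.

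Stmn2 and Stmn3, of the stathmin family that destabilises microtubules in growing neurites, differed from each other in their control time course. Stmn2 had control signals of 7697, 2559 and 1673 on days 5, 6 and 8 and MPA signals of 1589 and 1004. It was highest on day 5, and 1.61-fold and 1.67-fold lower with MPA on days 6 and 8. Its second probe set was lower at both days as well. Stmn3 had control signals of 612, 383 and 779.7 and MPA signals of 126 and 489, which is 3.03-fold and 1.60-fold lower. The probe set used for Stmn3 is of a type that can cross-hybridise. Its other one was lower at both days, with log2 differences of -0.43 and -1.33 in place of -1.60 and -0.67, so the day with the larger difference depends on the probe set.

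The neuronal RNA-binding proteins of the Hu family were lower with MPA. Elavl4 had control signals of 103, 98.1 and 753 and MPA signals of 72.6 and 317. It was 2.37-fold lower on day 8 and at least 1.13-fold lower on day 6. One further probe set was lower on day 8, with 545 and 284, and another was higher, with 191 and 209. Elavl3 had control signals of 56.4, 126 and 168 and MPA signals of 7.38 and 145. It was at least 1.45-fold lower on day 6, where the MPA array was under the floor, and 1.15-fold lower on day 8.

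Adhesion and membrane proteins of axons were lower with MPA on day 6 in all 4 members measured, by 1.498-fold to 2.19-fold, and mostly not on day 8. Ncam1, the neural cell adhesion molecule, had control signals of 375, 593 and 908 and MPA signals of 298 and 1066. It was 1.99-fold lower on day 6, just under the 2-fold line, and 1.17-fold higher on day 8. The mean over probe sets gave a day 6 log2 difference of -0.28 in place of -0.996, and of -0.02 on day 8 in place of 0.23. L1cam, of axon bundling, had control signals of 144, 132 and 182 and MPA signals of 88.3 and 202, which is 1.498-fold lower and 1.11-fold higher. By the probe sets used, both had their highest signal with MPA on day 8. A further probe set of Ncam1, above the floor on every array, was lower with MPA at both days, with log2 differences of -0.13 and -0.34. Its highest signal was in the day 8 control, at 825 against 649 with MPA.

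By the probe sets used, Nrcam and Gpm6a followed a different course, highest on day 5. Nrcam, a relative of L1cam, had control signals of 800.2, 578 and 192 and MPA signals of 264 and 120.4. It was 2.19-fold lower on day 6 and 1.59-fold lower on day 8, and the day 6 log2 difference of -1.13 was -0.31 as the mean over probe sets. Gpm6a, a membrane protein of neurites, had control signals of 461, 324 and 82.6 and MPA signals of 184 and 40.2. It was 1.76-fold lower with MPA on day 6 and under the floor on both day 8 arrays by the probe set used. Its other probe set was above the floor on both, with 102 without and 91.3 with MPA. That probe set had 54.2 and 85.9 in the controls of days 5 and 6, so its control course was the opposite, highest on day 8. Cntn2, an adhesion protein of early axons, was above the floor on day 5 (93.4) and with MPA on day 8 (105) by the probe set used. Another probe set had 131 in the day 8 control and 6.15 with MPA, the opposite direction, and a further one reached 97.1 with MPA on day 6. So no direction is read from Cntn2 here. The counts and medians below still take in the probe set used, with a day 8 log2 difference of 0.28.

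Growth cone proteins went in different directions on day 6 and were all lower on day 8. Gap43, a membrane protein of growth cones, had control signals of 263, 411 and 1038 and MPA signals of 571 and 574. It was 1.39-fold higher with MPA on day 6 and 1.81-fold lower on day 8. Dpysl3, a collapsin response protein, had control signals of 489, 542 and 1563 and MPA signals of 843 and 1137, which is 1.56-fold higher and 1.37-fold lower. For both genes the MPA array was above the control on day 6 and below it on day 8. Crmp1, of the same protein family as Dpysl3, had control signals of 643, 655 and 552 and MPA signals of 258 and 516. It was 2.54-fold lower on day 6 and 1.07-fold lower on day 8, with 4 arrays close together and the day 6 MPA array below them.

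The neurofilament subunits Nefl and Nefm were lower with MPA on day 6 and nearly level on day 8. Nefl, the light subunit, had control signals of 3831, 442 and 2348 and MPA signals of 167 and 2389. Nefm, the medium subunit, had control signals of 639, 268 and 2235 and MPA signals of 104 and 2409. Both were lowest on day 6, and lower still with MPA at that day, by 2.64-fold for Nefl and 2.56-fold for Nefm. At day 8 they were 1.02-fold and 1.08-fold higher with MPA. With a floor on the 65th percentile the day 6 log2 difference was -0.60 in place of -1.36 for Nefm, and -1.32 in place of -1.40 for Nefl. Nefl had a second probe set with the same directions. Ina, which encodes the filament protein internexin alpha, had control signals of 127, 81.1 and 307 and MPA signals of 57.2 and 194, and was 1.59-fold lower on day 8. A further probe set of Ina, above the floor on every array, had log2 differences of -0.86 and -0.83.

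Synaptic vesicle and release proteins were dim, near the floor on most arrays. Syt1, the calcium sensor synaptotagmin 1, had control signals of 52.0, 82.6 and 183 and MPA signals of 78.8 and 105, 1.74-fold lower on day 8. Snap25, of the vesicle fusion complex, was above the floor only in the day 8 control, at 151 against 60.0 with MPA, which is at least 1.73-fold lower. Syp, which encodes synaptophysin, reached 89.4 and 103 in the controls of days 6 and 8 and 4.62 and 80.9 with MPA. Differences of this size lie close to the noise of dim MAS5 signals: a bacterial control probe set, trpnX, reached 59.4.

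Counted over all roles, more members were lower than higher with MPA at both days. At day 6, 24 members were measured, 18 lower and 6 higher. There were 6 members at least 2-fold lower and 0 at least 2-fold higher, where 3.15% and 4.02% of 12240 measured genes were (385 lower and 492 higher, or 472 and 390 with median centring). At day 8, 30 were measured, 21 lower and 9 higher, with again 6 at least 2-fold lower and 0 higher, where 3.18% and 3.72% of 12599 genes were. The 6 on day 6 were Rfx4, Stmn3, Nrcam, Crmp1, Nefl and Nefm, and the 6 on day 8 were Rfx4, Fabp7, Ptprz1, Dcx, Dclk1 and Elavl4. Of 23 members measured at both days, 11 were lower at both, a count that was not made over all genes. With a floor on the 25th percentile the day 6 count was 10, where 2420 of 16457 genes were at least 2-fold lower. At that floor 2 members were at least 2-fold higher, where 2264 genes were. With the mean over probe sets the day 8 count was 3, where 233 of 12762 genes were at least 2-fold lower.

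Progenitor and neuronal products were set side by side. The 6 progenitor products had a median log2 difference of -0.29 on day 6 and of -0.88 on day 8. Among the 27 neuronal products the median was -0.56 over 18 measured on day 6 and -0.35 over 24 measured on day 8. All measured genes had medians of 0.02 and -0.02. At day 8 the progenitor products ranged from -4.41 to 0.01 and the neuronal products from -1.62 to 0.45, so the ranges overlap. The progenitor median lies between 3 genes with large differences and 3 with small ones, so it moves with the processing and the genes counted. Without probe sets of the types that can cross-hybridise or span transcripts the progenitor medians were -0.03 and -1.51 on days 6 and 8. Prom1, whose only probe set is of such a type, drops out there, and the other progenitor products keep their values. With a floor on the 65th percentile the progenitor medians were -0.40 and -0.49. With the mean over probe sets they were -0.48 and -0.42, and the neuronal medians -0.29 and -0.17, so both lay further from 0 on day 6. Which day had the larger progenitor median thus depends on the choice of probe set. With Gpm6a counted as a progenitor product, the day 6 medians were -0.55 for progenitor and -0.53 for neuronal products. So the order of the roles on day 6 depends on the probe sets and on the role given to Gpm6a. Whether the days or the roles differ was not tested, since no group has a second array.

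**Figure D2:**
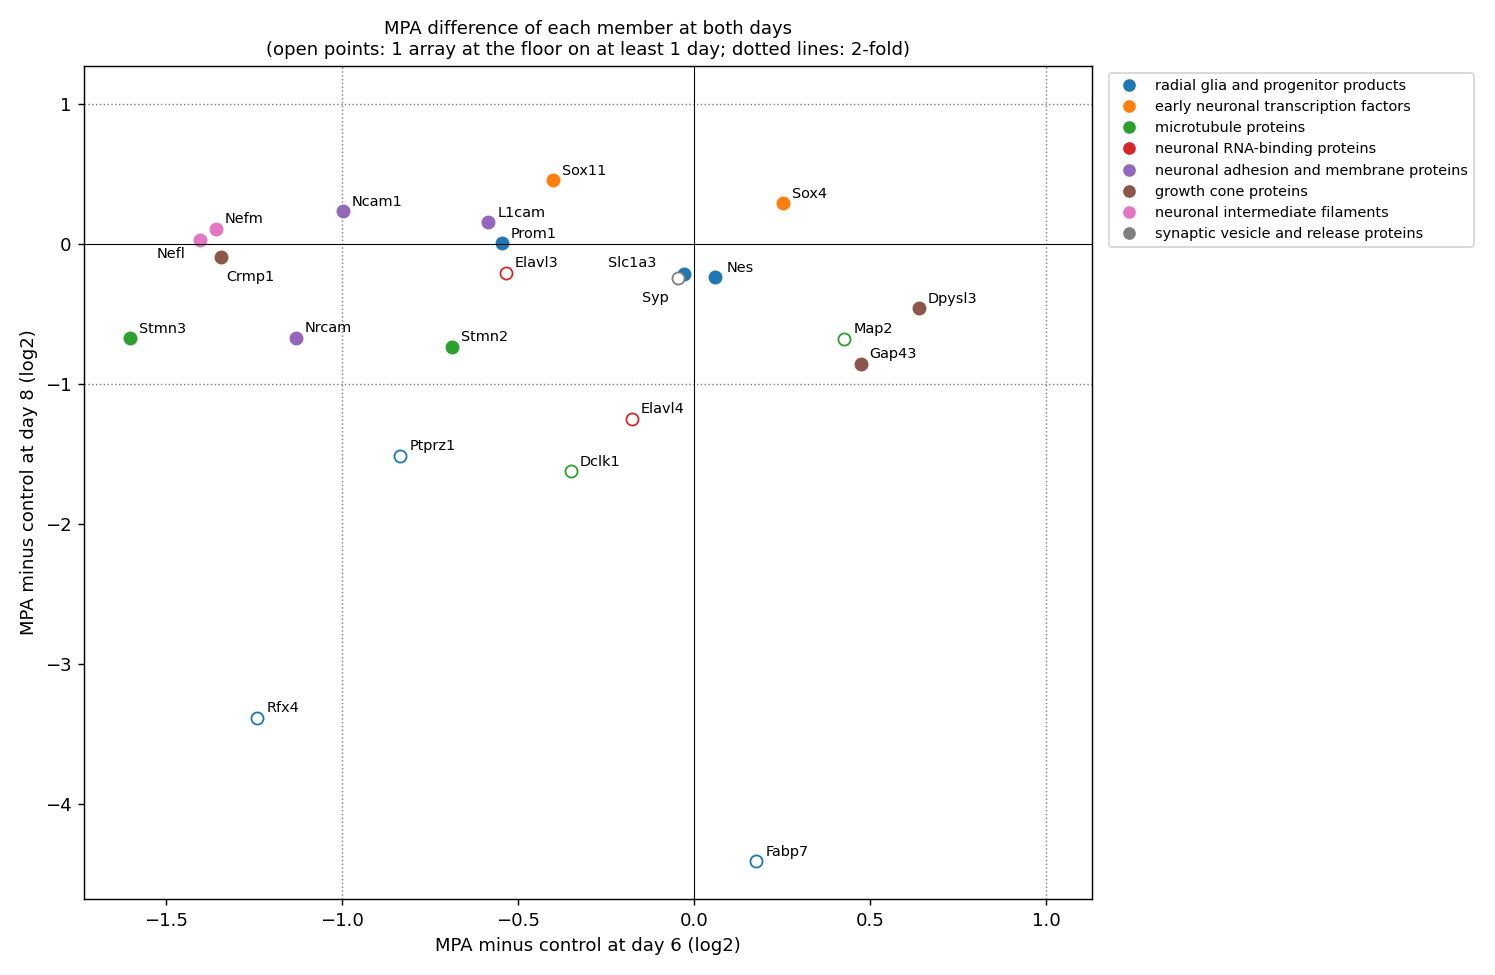
MPA minus control (log2) on day 6 (horizontal axis) and on day 8 (vertical axis) for the 23 members measured at both days, coloured by role. Each point is the difference of 1 pair of arrays at each day, open points have an array at the floor, and dotted lines mark 2-fold. Fabp7 and Rfx4 lie lowest on day 8 (-4.41 and -3.38), while Nefl and Nefm lie far left and near 0 on day 8.

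The 4 arrays of days 6 and 8 allow 1 test, of an MPA difference alike at both days, in limma with day as a factor and 1 residual degree of freedom. The fit took in 29 members, those with 2 or more of these arrays above the floor. Of them 0 passed at an adjusted p under 0.05, where 0.00862% of 11599 genes did. At an unadjusted p under 0.05 there were 4 members, all lower, where 6.37% of all genes were in either direction. Rfx4 had a mean log2 difference of -2.31 (SE 0.55, adjusted p = 0.492 in limma, lower at 2 of 2 days). Stmn2 had one of -0.71 (SE 0.23, limma adjusted p = 0.654), the smallest of the 4 but nearly equal at both days. Stmn3 and Ptprz1 had mean differences of -1.14 (SE 0.39) and -1.17 (SE 0.41), each with an adjusted p of 0.693 in limma. Fabp7, whose difference was found on day 8 alone, had -2.12 (SE 1.36, adjusted p = 0.879). The day 8 MPA signals of Rfx4, Ptprz1 and Fabp7 entered the fit at the floor, so their mean differences and SEs depend on it. The lowest adjusted p of any member ran from 0.492 to 1 over the alternatives.

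The pairs of days 6 and 8, which share no array between control and MPA, show which members were higher at the later day in each condition. In the controls 16 members were at least 2-fold higher on day 8 than on day 6. With MPA 10 members were at least 2-fold higher and 3 lower, where 7.64% of 12257 genes were in each direction. Of the 16 in the controls, 8 were also at least 2-fold higher with MPA: Sox11, Tubb3, Map2, Stmn3, Elavl4, Nefl, Nefm and Ina. The other 8 were Fabp7, Nes, Rfx4, Dcx, Dclk1, Gap43, Dpysl3 and Syt1. The overlap of the conditions was not counted over all genes, so this split is not read as particular to the members. Nes was 2.001-fold higher in the controls and 1.62-fold with MPA, so it lay on the line. Dcx, Dclk1 and Syt1 had a day 6 MPA signal under the floor, so their values of at least 1.97-fold, 1.70-fold and 1.21-fold higher with MPA are lower bounds.

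The sizes differed between the conditions for several members. Fabp7 was 12.6-fold higher on day 8 than on day 6 without MPA and at least 1.90-fold lower with it. Rfx4 was 4.297-fold higher without MPA, and at least 1.03-fold lower with it. Gap43 was 2.52-fold higher without MPA and 1.005-fold higher with it. Nefm was 8.35-fold higher without MPA and 23.1-fold higher with it, and Nefl 5.32-fold and 14.3-fold, and both were lower with MPA on day 6. By the probe sets used, Ncam1 and L1cam were at least 2-fold higher with MPA alone, by 3.58-fold and 2.29-fold, against 1.53-fold and 1.37-fold in the controls. A further probe set of Ncam1 had 321 and 825 in the controls of days 6 and 8, and 294 and 649 with MPA. For Ncam1 the contrast between the conditions thus depends on the probe set.

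**Figure D3:**
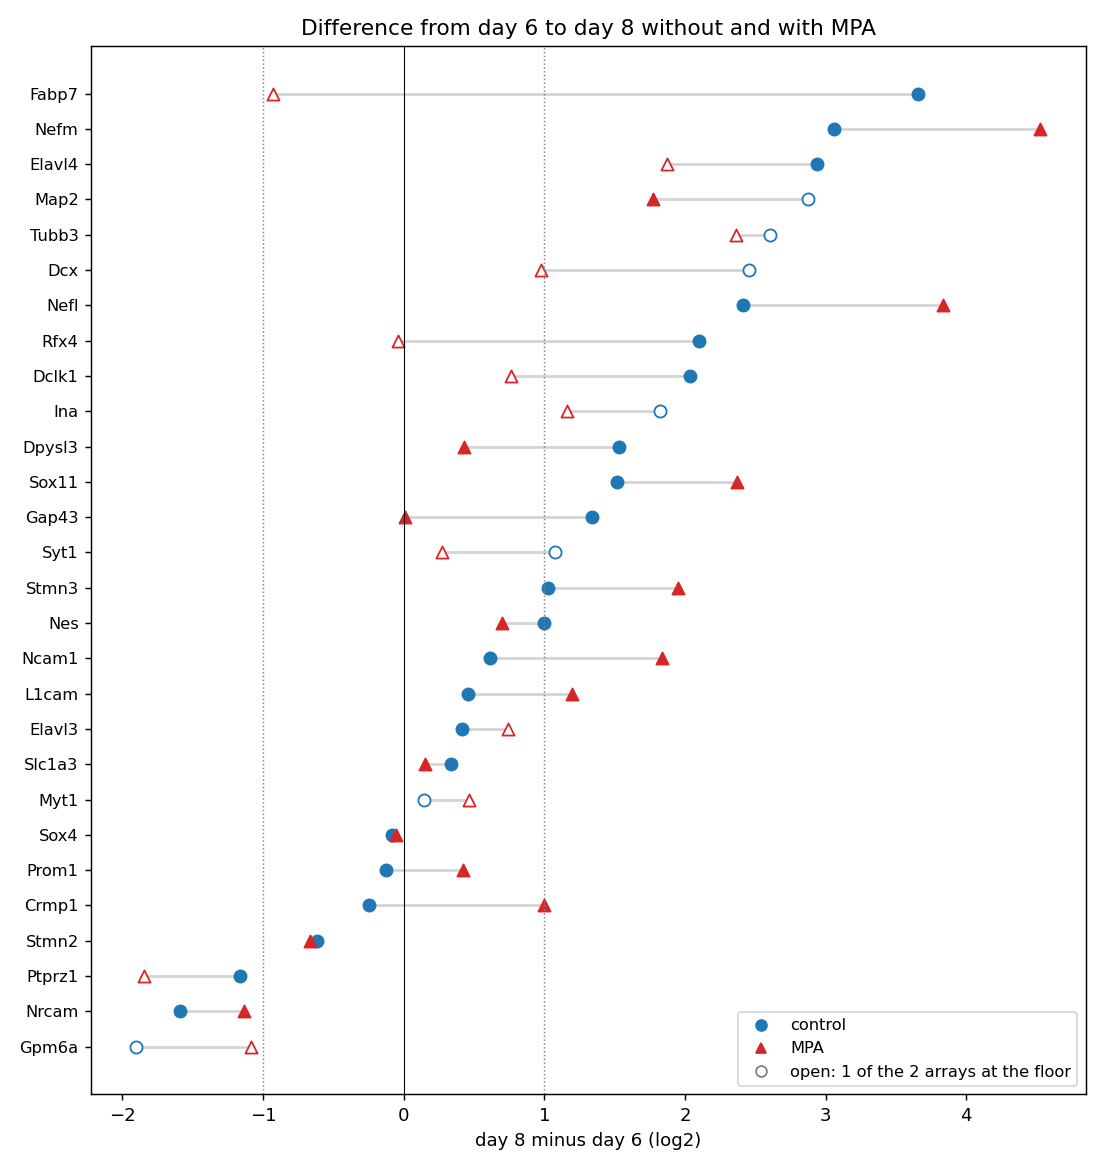
Day 8 minus day 6 (log2) in the controls (circles) and with MPA (triangles) for each member measured in both, sorted by the control value. Open symbols have 1 of their 2 arrays at the floor, and dotted lines mark 2-fold. Fabp7 has 3.66 without MPA and -0.93 with it, while Nefm has 3.06 and 4.53.

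Further neural genes, from lists of other progenitor and neuronal products, were set beside the members. Of 20 further progenitor products, 18 were measured on day 8, with MPA 14 of them lower and 4 higher, and the median log2 difference was -0.41 (5 at least 2-fold lower and 1 higher). At day 6 it was -0.25 over 17 measured, 10 lower and 7 higher. Ednrb, the endothelin receptor B of radial glia and neural crest, was 2.03-fold lower on day 6 and 12.7-fold lower on day 8. Hes5, a Notch target of neural progenitors, was lower by at least 2.61-fold and by at least 9.39-fold. Slc1a2, of a glial glutamate transporter, was 1.80-fold and at least 3.47-fold lower, and Ptn, which encodes pleiotrophin, 1.65-fold and 2.91-fold lower. These genes had the largest mean differences of the list, and others went the other way. Sox9, the 1 at least 2-fold higher on day 8, had 207 without and 503 with MPA there, and 321 and 617 on day 6. Vim and Mfge8 were higher with MPA at both days too.

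Of 44 further neuronal products on the array, 37 were measured on day 8, 15 lower and 22 higher, with a median of 0.13 (4 at least 2-fold lower and 0 higher). At day 6 the median was -0.12 over 34 measured, 20 lower and 14 higher. Elavl2, of the Hu family, was 1.76-fold lower on day 6 and 2.34-fold lower on day 8. Rtn1, a reticulon of neurons and endocrine cells, was 1.11-fold and 2.67-fold lower, and Cplx1, a complexin of vesicle release, lower by at least 2.03-fold and by at least 2.36-fold. Stmn4, of the stathmin family, was at least 1.85-fold and 1.61-fold higher. So the wider neuronal list had a median above 0 on day 8, where that of the neuronal members was below 0.

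Markers of other cell types also differed between the MPA and control arrays. Of 18 endocrine cell markers on the array, 16 were measured on day 8, 14 higher and 2 lower with MPA, with a median of 0.98, and their signals added up to 12569.6 in the control and 24014 under MPA. At day 6 the median was 0.06 over 8 measured, with sums of 4794 and 4771. Sct, which encodes secretin, was 5.53-fold and 3.003-fold higher on days 6 and 8, and Neurod1, a factor of endocrine cells and neurons, 2.55-fold and 3.38-fold higher. Gcg, which encodes glucagon, had 271 without and 2572 with MPA on day 8, 9.49-fold higher. Pax6, which marks neural progenitors as well as endocrine cells, was 3.29-fold and 2.93-fold lower. Pax4, of endocrine precursors, was under the floor on every array. The part of these cells in the signals of shared genes such as Syt1, Snap25 or Ncam1 was not tested.

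Epithelial markers were higher with MPA on day 8 in all 15 measured, with a median of 0.89 and signals adding up to 82312 in the control and 146498 under MPA. At day 6 the median was 0.31 over 16 measured, 11 higher and 5 lower, with sums of 82329.5 and 106870. St14, a membrane protease, was 2.35-fold and 2.57-fold higher, Krt7, a keratin, 1.60-fold and 2.61-fold higher, and the junction genes Cldn4 and Ocln 2.84-fold and 1.42-fold higher on day 6 and 1.81-fold and 3.54-fold higher on day 8. Prom1, the member that epithelia share, was level on day 8.

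Neural crest and Schwann cell markers had medians of -0.54 on day 6 and -0.19 on day 8, with 4 of 7 measured lower at each day. Pax3, of the dorsal neural tube and crest, was 3.35-fold and 4.60-fold lower, and Tfap2a 1.46-fold and 3.33-fold lower, while Erbb3 was 2.41-fold and 1.80-fold higher and Snai2 2.21-fold and 1.14-fold lower. Mesenchyme markers had medians of -0.16 and -0.05, with 6 of 11 and 5 of 10 lower. Among them Dcn was 2.07-fold and 2.74-fold higher. Pdgfra was 1.39-fold lower and then 3.28-fold higher, and Pdgfrb and Twist1 had log2 differences of -0.69 and -0.96 on day 6 and of -0.50 and -0.22 on day 8. Muscle markers had medians of 0.25 and 0.94, with 4 of 7 and 6 of 8 higher, Tagln by 1.23-fold and 2.57-fold. Myh7 was at least 1.84-fold and then 1.99-fold higher, Mef2c lower by at least 2.34-fold and by at least 1.22-fold, and Myl7, measured on day 8, 1.98-fold higher. Of 8 oligodendrocyte lineage markers, 5 were above the floor on no array, among them Olig1, Olig2, Mag and Mog, and the 3 measured had medians of -0.24 and 0.51. They were Pdgfra, Mbp (-0.24 and 0.51) and Cnp (0.86 and -0.66). The part of these lists in the members' differences was not tested.

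**Figure D4:**
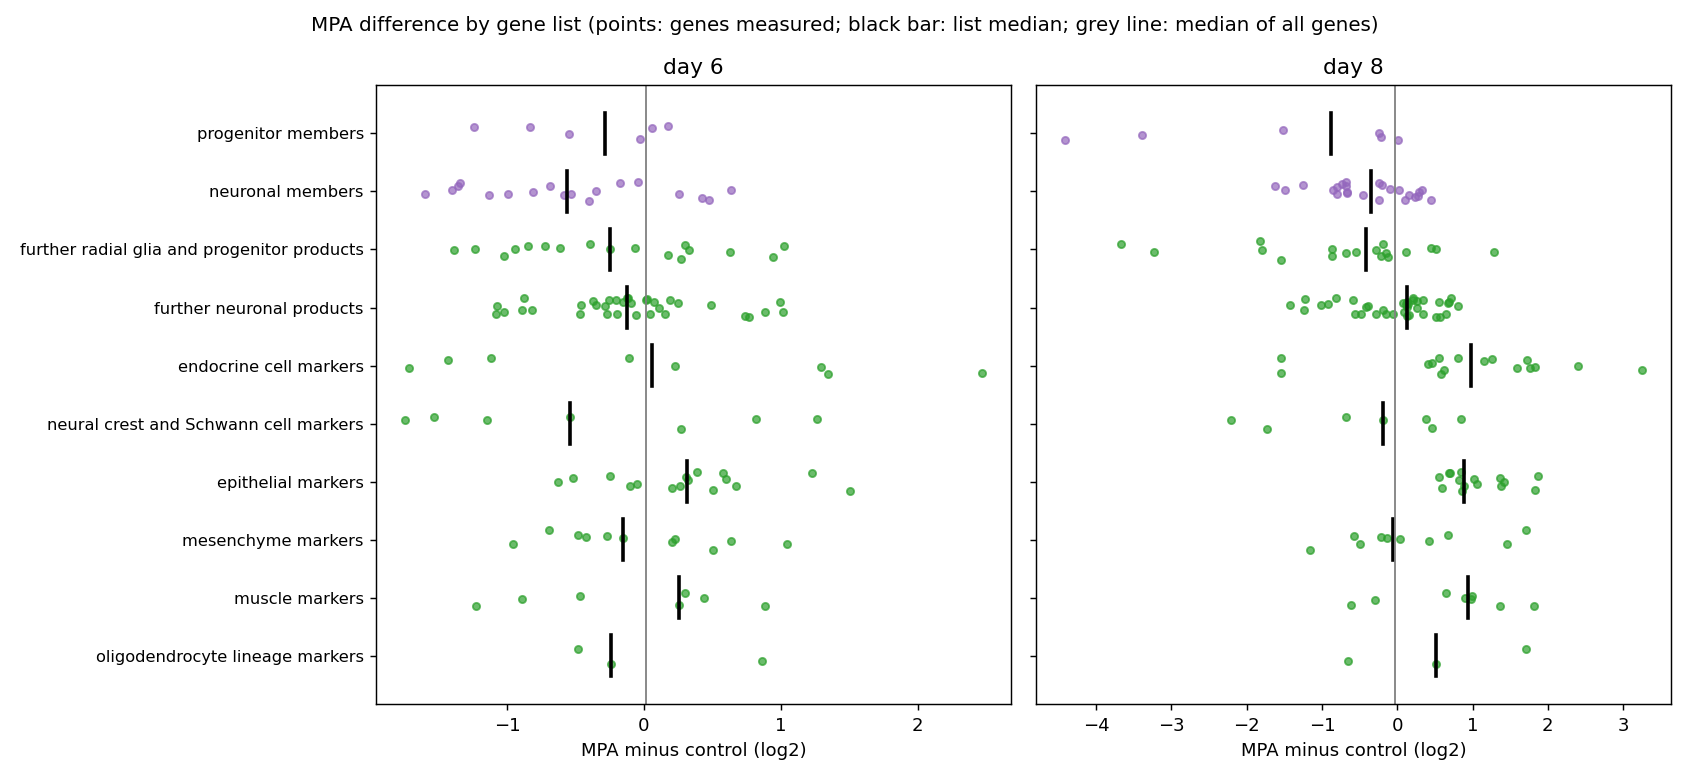
MPA minus control (log2) on day 6 and day 8 for the genes measured of each list, 1 point per gene, with the list median as a black bar and the median of all measured genes as a grey line. Progenitor members have medians of -0.29 and -0.88, neuronal members -0.56 and -0.35, endocrine markers 0.06 and 0.98 and epithelial markers 0.31 and 0.89.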

How the data were processed

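Biotin-labelled cRNA was hybridised to an Affymetrix mouse array, 1 per sample, per the labels' protocols. Each probe set has 1 linear intensity as deposited, made with MAS5 per the submitters' processing notes. The sources used here do not give its version or filters. Of 45101 probe sets, 64 were controls, and 34945 had 1 gene symbol in the platform annotation. The 932 with several symbols and the 9160 unnamed here were left out. The brightest probe set over the 5 arrays stood for each gene. Signals under the floor of 86.8 were raised to it before log2. The limma fit (limma 3.58.1, R 4.3.3, eBayes with trend and robust, Benjamini-Hochberg over all genes) used the 4 arrays of days 6 and 8. Its error is the disagreement between both days, not the spread between cultures. The fit was also run on simulated data with equal MPA differences at both days, which cannot show how it does where the days differ. Python 3.11.15 did the rest. All members are named, and of each further list up to 4 genes measured at day 8 with the largest mean MPA difference. Others (Sox9, Vim, Mfge8, Pax4, Olig1, Olig2, Mag, Mog) were chosen after their values were seen. Members, lists and motifs were chosen with earlier results of these data known. The alternatives were 2 scalings, 3 floors, 2 choices of probe set, the role of Gpm6a and 4 forms of the fit.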

Additional observations from a re-analysis of the deposited data

Results flagged for a closer look

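By the probe sets used, the MPA difference of 5 members had opposite signs on day 6 and day 8, with all 4 arrays above the floor and over 2-fold between the days. The log2 difference on day 8 minus that on day 6 was 1.47 for Nefm (-1.36 on day 6, 0.11 on day 8), 1.43 for Nefl (-1.40 and 0.02) and 1.23 for Ncam1 (-0.996 and 0.23, the latter -0.02 as the mean over probe sets). It was -1.33 for Gap43 (0.47 and -0.85) and -1.10 for Dpysl3 (0.64 and -0.46). With a floor on the 65th percentile the differences of Nefm were -0.60 on day 6 and 0.11 on day 8, so its size depends on the floor. A further probe set of Ncam1, above the floor on every array, had -0.13 on day 6 and -0.34 on day 8. The mean over probe sets gave -0.28 and -0.02 for Ncam1, so its opposite signs depend on the probe set. Each day has 1 array per condition, so the difference between the days was not tested.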

How the results depend on the processing

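Of 71 values of the counts, medians and passing members under the alternatives, 65 stayed near the main value, a count within 1.5 times of it and a median within 1.5-fold on the linear scale, and none changed direction. Such a median can still move far for its size: the progenitor one on day 6 was -0.03 to -0.55 (main -0.29), and with the mean over probe sets those on day 8 were -0.42 (progenitor, main -0.88) and -0.17 (neuronal, main -0.35). The other 6 were these. With a floor on the 25th percentile, 10 members in place of 6 were at least 2-fold lower with MPA on day 6, and 16 in place of 10 were higher on day 8 than on day 6 with MPA. The counts over all genes rose too, to 2420 of 16457 from 385 of 12240, and to 2903 of 16465 from 936 of 12257. With the mean over probe sets, 3 in place of 6 were lower with MPA on day 8, 8 in place of 15 were higher on day 8 than on day 5 without MPA, and 5 in place of 10 were higher on day 8 than on day 6 with MPA. Over all genes these counts were 233 of 12762, 724 of 12937 and 578 of 12414. The main counts over all genes were 401 of 12599, 1228 of 12784 and 936 of 12257. Without probe sets ending in _s_at, _x_at or _a_at, the progenitor median on day 8 was -1.51 in place of -0.88. Prom1 has no other probe set and drops out there, which also gave the -0.03 on day 6. Of 360 values of single members, 27 moved by over 1.5-fold, and none of a member 2-fold apart changed sign. In limma, 0 members passed under each of the 11 alternatives. No paired analysis was possible because each group had 1 array, and for the same reason no array could be left out. Values with an array near the floor move with it: with a floor on the 25th percentile the day 6 difference of Elavl3 was -3.09 in place of -0.53 and that of Dclk1 -1.37 in place of -0.35.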

Other observations

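The 6 probe sets of Sox11, all above the floor on every array, gave different sizes on day 6. The brightest had a log2 MPA difference of -0.40, while the other 5 ran from -1.80 to -0.80, the lowest from a probe set with signals of 1115 without and 319.9 with MPA. At day 8 all 6 were higher with MPA, by 0.11 to 0.56. Over all members, 25 of 31 further probe sets measured on day 6 and 29 of 34 on day 8 had the direction of the probe set used. Among members at least 2-fold apart these were 3 of 3 and 6 of 7, the exception being 1 probe set of Elavl4.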
